A study of Mus musculus with 6 samples.

Results

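The genes described here encode 7 subunits of the GABA-A receptor, Gabra2, Gabra3, Gabra4, Gabra5, Gabrb1, Gabrb2 and Gabrd. They were taken by gene name from the deposited tables, which hold 54040 genes, and all 7 had enough counts to be tested. The series compared bulk RNA of dentate gyrus labelled as knocked out for the m6A reader YTHDF2 (3 libraries, cKO) with negative control dentate gyrus (3 libraries labelled Ctrl). All were from C57BL/6 mice at postnatal day 40. The labels name the granule cell as the cell type but no sorting, and they give no Cre driver, no floxed allele, no genotype of the controls and no number of animals behind a library. Because nothing says that the replicates came from separate animals, p-values describe the spread among these libraries, which may be technical.

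GABA-A receptors are pentameric chloride channels built from alpha and beta subunits together with a gamma or a delta subunit. Many receptors with a gamma subunit, though not all, gather at synapses, where gephyrin holds them, and carry fast phasic inhibition. In dentate granule cells the alpha4 and delta subunits form receptors outside the synapse that respond to ambient GABA and give a tonic inhibition sensitive to neurosteroids. The alpha2 subunit is a synaptic and axon initial segment subunit, alpha3 is best known from other brain regions, and alpha5 is largely extrasynaptic in hippocampus.

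Of the 7 subunit messages Gabra2 fell in the cKO libraries, to 0.868-fold of control, and the other 6 did not pass the test. The 3 other alpha messages had log2 fold changes of -0.16 (Gabra5), -0.15 (Gabra4) and -0.02 (Gabra3). The beta messages stood at 0.04 (Gabrb1) and -0.09 (Gabrb2), and the delta message Gabrd at 0.08. This single call among 7 is to be read against the 3.95% of all 16928 tested genes that edgeR called, 0.874% as lower and 3.07% as higher. Unless stated otherwise, levels are CPM (counts scaled to library size with TMM factors), fold changes are cKO over Ctrl on the log2 scale, and adjusted p-values come from edgeR (quasi-likelihood, Benjamini-Hochberg, adjusted across the whole table) with calls made under 0.05.

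Libraries held 16794642 to 19190101 gene counts, so that 3 counts stood for 0.156 to 0.179 CPM. The targeted gene Ythdf2 was measured at 56.8, 56.5 and 54.5 CPM in cKO replicates 1 to 3 and at 68.6 and 68.4 CPM in Ctrl replicates 2 and 3, but at 37.9 CPM in the library labelled Ctrl replicate 1. Between the groups Ythdf2 differed by -0.06 on the log2 scale with all 6 libraries (edgeR adjusted p = 0.882), a value that rests on the library labelled Ctrl replicate 1. Every cKO library was below Ctrl replicates 2 and 3, and the fold change without the library labelled Ctrl replicate 1 is not given here. A full loss of the message was not seen in the cKO libraries, and the labels do not say which part of the gene was deleted. By its Ythdf2 level the library labelled Ctrl replicate 1 goes against its label. By Efr3b, the gene with the smallest p in the table (named after its values were seen), it lies with the controls, at 149 CPM beside 119 and 134 CPM in Ctrl replicates 2 and 3 and 790 to 817 CPM in cKO. Efr3b was picked by its difference between these labelled groups, so its value is no independent check of the label. Some values below are also given without the library labelled Ctrl replicate 1. The sums over subunit classes and over cell type markers are not. Markers of mature granule cells were abundant, with Prox1 at 536 CPM and Calb1 at 322 CPM in the controls. Markers of interneurons and glia were present too, with Gad1 at 266 CPM and Gfap at 443 CPM, so the libraries hold tissue rather than granule cells alone. All 6 libraries had 67.2 to 74.6 CPM of the Y-linked Ddx3y and at most 8 counts of Xist, which matters for Gabra3 on the X chromosome.

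Promoter windows from RefSeq (GRCm38.p6, 250 bases before to 50 after a start site) were found for 6 of the 7 genes. Those of Gabra2, Gabra4 and Gabra3, the scarcest message, are shown 5′ to 3′ on the minus strand with CpG dinucleotides in capitals. The libraries of Gabra2, Gabra4 and also Gabra5 did not overlap between the groups, and the Gabra5 window is not shown. Another window of Gabra3 is not shown either.
Gabra2 (chr5:71095800-71096099): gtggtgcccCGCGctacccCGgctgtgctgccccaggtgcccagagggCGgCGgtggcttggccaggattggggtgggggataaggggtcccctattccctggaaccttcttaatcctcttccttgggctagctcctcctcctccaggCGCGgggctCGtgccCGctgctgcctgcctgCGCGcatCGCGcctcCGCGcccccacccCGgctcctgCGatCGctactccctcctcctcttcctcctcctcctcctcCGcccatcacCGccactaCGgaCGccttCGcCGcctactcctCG
Gabra4 (chr5:71658259-71658558): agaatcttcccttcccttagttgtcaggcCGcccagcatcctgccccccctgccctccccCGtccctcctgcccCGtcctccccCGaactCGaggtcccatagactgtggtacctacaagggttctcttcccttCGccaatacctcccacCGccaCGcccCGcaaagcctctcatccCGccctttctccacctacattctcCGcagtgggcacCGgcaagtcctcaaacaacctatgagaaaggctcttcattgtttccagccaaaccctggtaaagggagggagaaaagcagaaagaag
Gabra3 (chrX:72656870-72657169): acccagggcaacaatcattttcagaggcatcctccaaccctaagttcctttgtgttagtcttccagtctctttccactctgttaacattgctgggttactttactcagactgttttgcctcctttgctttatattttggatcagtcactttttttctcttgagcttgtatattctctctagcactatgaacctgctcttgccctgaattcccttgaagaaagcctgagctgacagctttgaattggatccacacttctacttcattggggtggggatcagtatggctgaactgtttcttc
The Gabra2 window held 25 CpG dinucleotides at 70.0% GC, the Gabra4 window 12 at 58.7% and the Gabra3 window shown 0 at 43.0%. The other Gabra3 window held 0 at 39.3%, and the Gabra5 window 13 at 56.7%. The median over 32851 promoters was 7 CpG and 52.7% GC. The EGR motif GCGNGGGCG, searched on both strands and present in 5.55% of promoters, was matched 2 times in the upstream start window of Gabrb1 and 1 time in a window of Gabrb2, and in no window of the 4 alpha genes. The cyclic AMP response half-site TGACG, present in 20.8% of promoters and part of the full element TGACGTCA, was matched in 1 window, that of Gabrb2. The full element itself, present in 1.79%, was matched in none of the members' windows.

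Per length, the messages differed widely in abundance. Averaged over the 6 libraries, FPKM (fragments per kilobase, scaled to library size, the authors' deposited level) was 56.2 for Gabra5, 32.8 for Gabra2, 30.3 for Gabra4, 25.3 for Gabrb1, 23.2 for Gabrb2, 16.4 for Gabrd and 1.58 for Gabra3. The ranges of Gabra2 and Gabra4 overlapped, although Gabra2 was the higher in 6 of 6 libraries. Gabrb1 exceeded Gabrb2 in 5 of 6 libraries with overlapping ranges. For the other neighbours in this order the ranges over the 6 libraries did not overlap. Dividing counts by the length of the principal transcript in GENCODE M21 instead of the deposited exon length exchanged Gabra2 with Gabra4 and Gabrb1 with Gabrb2, so the order inside those pairs depends on the gene model. Gabrb1 has an annotated 3′ untranslated region of 12231 bases, longer than in 99.9% of tested protein-coding genes. Whether its reads cover that region was not tested.

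**Figure D1:**
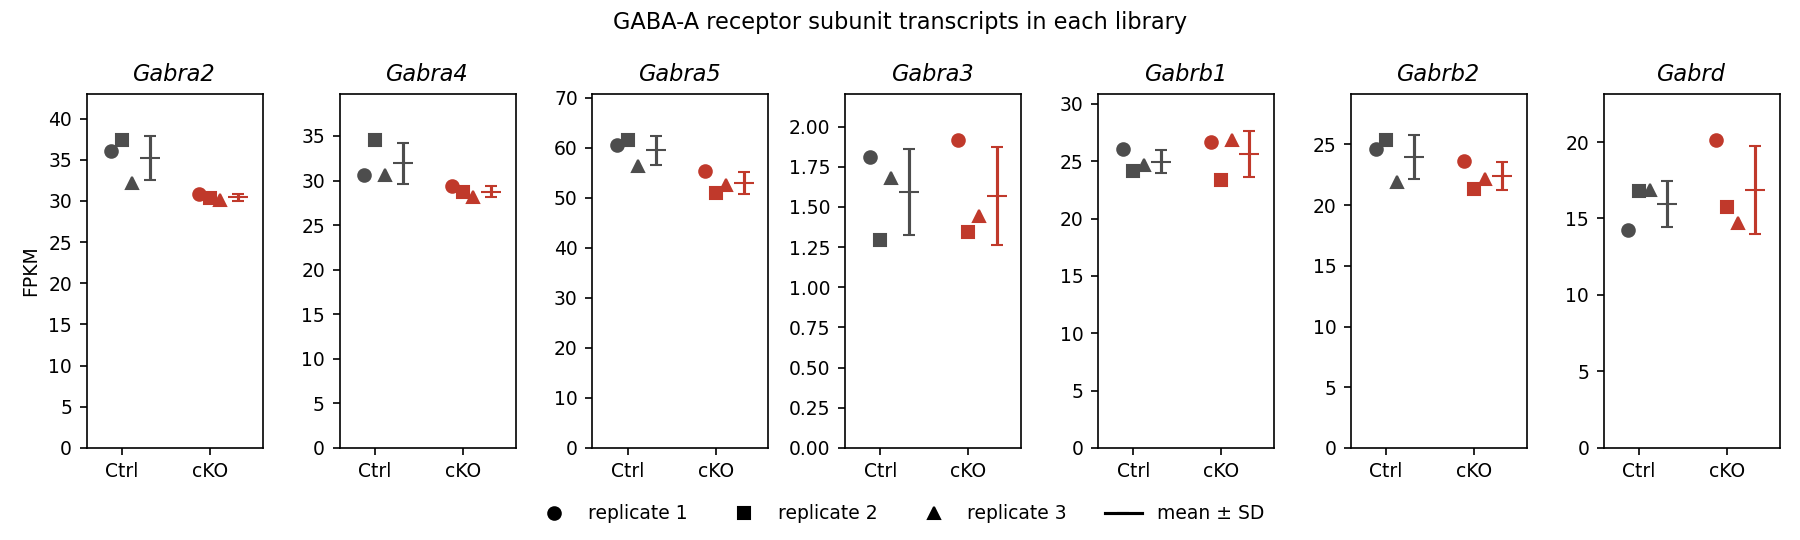
FPKM of each subunit gene (y axis, linear from 0, scaled per panel) in the Ctrl and cKO libraries; symbols mark the replicate and the bar beside them is the mean ± SD (n = 3). The cKO libraries of Gabra2, Gabra4 and Gabra5 all lie below the controls, and those of the other 4 genes overlap them.

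Gabra2 (ENSMUSG00000000560) lies on the minus strand of chromosome 5 from 70957597 to 71095849. Its level was 277, 287 and 246 CPM in control replicates 1, 2 and 3 and 237, 234 and 231 CPM in cKO replicates 1, 2 and 3. Every cKO library was below every control, with control replicate 3 the nearest to them. The means were 270.0 ± 21.3 (SD, n = 3) and 234 ± 3.04 CPM, a log2 fold change of -0.20 ± 0.05 (SE, 95% interval -0.32 to -0.09, edgeR adjusted p = 0.0405). The call was close to the threshold. It was kept without Ctrl replicate 3 (-0.27, adjusted p = 0.00587) and lost without any other library, with adjusted p-values of 0.0906, 0.105 and 0.165 without cKO replicates 1, 2 and 3, of 0.082 without the library labelled Ctrl replicate 1 and of 0.141 without Ctrl replicate 2.

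The Gabra2 transcript is AU-rich, with 38.4% GC against a median of 50.6% over the principal transcripts of 13911 tested protein-coding genes. Among the longest transcripts of all tested genes with a GC value, Gabra2 lay at percentile 3.53. Across these libraries fold changes followed GC content. Among 632 genes with under 40% GC the median log2 fold change was -0.07 and 72.2% were negative, whereas among 3659 genes above 55% it was 0.06 and 33.1% were negative. With offsets for GC content and gene length Gabra2 stood at -0.18 with an edgeR adjusted p of 0.0764, so its size changed little and the call was lost.

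Gabra4 (ENSMUSG00000029211) lies in the same gene cluster, on the minus strand of chromosome 5 from 71569749 to 71658308. Control replicates held 187, 211 and 187 CPM and cKO replicates 180, 176 and 172 CPM. The groups did not overlap, but the gap between them was narrow beside the spread of the controls. The log2 fold change was -0.15 ± 0.05 (SE, 95% interval -0.26 to -0.04), which did not pass the test (edgeR adjusted p = 0.128). Gabra4 was called in 1 of 15 alternatives, without a low-count filter (adjusted p = 0.0376, within a range of 0.0376 to 0.371).

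Gabra5 (ENSMUSG00000055078) is on the minus strand of chromosome 7 from 57407672 to 57510059. It was measured at 181, 184 and 167 CPM in the controls and at 166, 153 and 157 CPM in cKO, again without overlap. Its log2 fold change was -0.16 ± 0.05 (SE, 95% interval -0.27 to -0.06, edgeR adjusted p = 0.082). DESeq2 called it (adjusted p = 0.0373), as did the fit without a low-count filter (0.0201), and the range over 15 alternatives was 0.0201 to 0.249. Groups without overlap were thus seen for 3 of the 7 subunits, and for 22.9% of all tested genes. The same 3 had an unadjusted edgeR p under 0.05, all with lower levels in cKO, against 17.6% of all tested genes in either direction and 7.53% in the lower one.

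Gabra3 (ENSMUSG00000031343, minus strand of chromosome X from 72432681 to 72656848) was scarce, with 86 to 128 counts per library. It was measured at 7.16, 5.10 and 6.59 CPM in the controls and at 7.58, 5.32 and 5.71 CPM in cKO. The groups overlapped fully. The log2 fold change of -0.02 had a 95% interval, not adjusted for the number of genes, of -0.39 to 0.35, or 0.764-fold to 1.27-fold. Differences inside that range are compatible with these libraries.

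**Figure D2:**
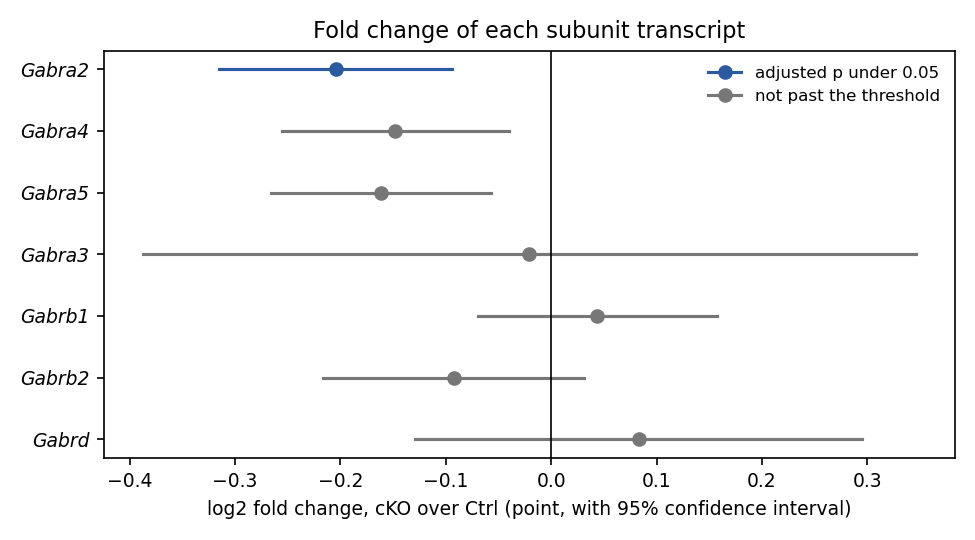
Log2 fold change, cKO over Ctrl (x axis), of each subunit gene (y axis) with its 95% confidence interval from edgeR's fit. Blue marks Gabra2, the gene past the adjusted threshold of 0.05, and grey the other 6; the interval is widest for Gabra3.

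The beta subunits are shared by most receptor types. Gabrb1 (ENSMUSG00000029212) runs along the plus strand of chromosome 5 from 71658113 to 72149037, head to head with Gabra4. It was measured at 363, 335 and 342 CPM in the controls and at 372, 325 and 375 CPM in cKO. The highest and the lowest of these libraries are both cKO. Its log2 fold change was 0.04 (95% interval -0.07 to 0.16, edgeR adjusted p = 0.731). Gabrb2 (ENSMUSG00000007653, plus strand of chromosome 11 from 42419757 to 42629028) held 157, 162 and 139 CPM in the controls and 151, 137 and 142 CPM in cKO. The groups overlapped, and the log2 fold change was -0.09 (95% interval -0.22 to 0.03, edgeR adjusted p = 0.446).

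Gabrd (ENSMUSG00000029054, minus strand of chromosome 4 from 155384980 to 155398112) encodes the delta subunit. It was measured at 41.1, 48.5 and 48.5 CPM in the controls and at 58.3, 45.6 and 42.7 CPM in cKO. The groups overlapped, cKO replicate 1 being the highest library and the library labelled Ctrl replicate 1 the lowest. The log2 fold change of 0.08 (95% interval -0.13 to 0.30, edgeR adjusted p = 0.726) was -0.06 without cKO replicate 1 and 0.01 without the library labelled Ctrl replicate 1. Gabrd has the highest GC content of the 7 principal transcripts, 56.8%.

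**Figure D3:**
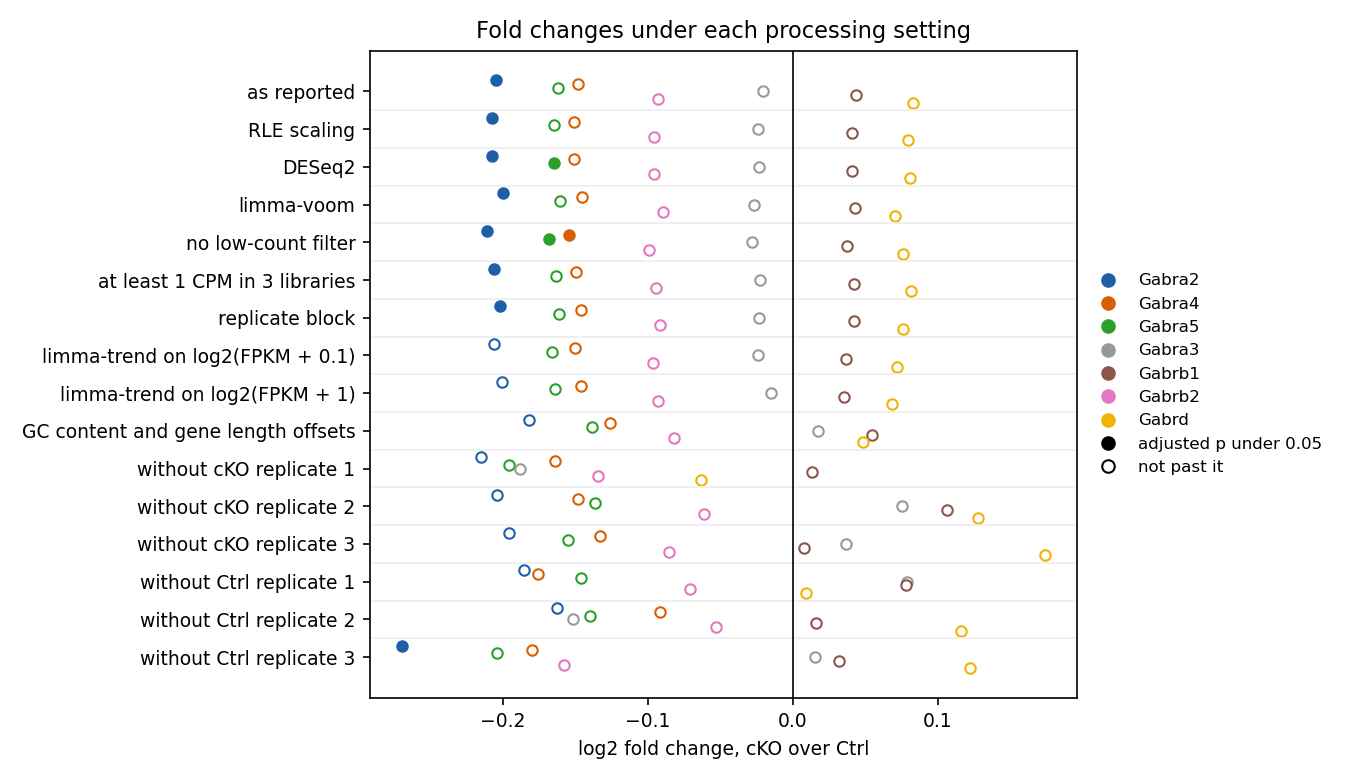
Log2 fold change, cKO over Ctrl (x axis), of the 7 subunit genes (colours) in the reported fit and in 15 alternatives (y axis); filled points passed the adjusted threshold of 0.05. Gabra2, Gabra4, Gabra5 and Gabrb2 are negative and Gabrb1 positive in every line, Gabra3 and Gabrd lie on both sides of 0, and Gabra2 is filled in the reported fit and in 7 alternatives.

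In the chromosome 5 cluster the log2 fold changes were thus -0.20 for Gabra2, -0.15 for Gabra4 and 0.04 for Gabrb1, and the differences between them were not tested except for the ratio of Gabra4 to Gabra2 given below. Annotated exons of Gabra4 and Gabrb1 overlap on opposite strands over 46 bases, and those of Gabra5 overlap the antisense transcript Gm9962 over 148 bases. Reads in these bases cannot be assigned, since the sources used here do not give the use of strand in counting. Gm9962 itself was at 1.02 CPM or less in every library.

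The balance between the extrasynaptic pair and the other subunits was compared per length. Gabra4 and Gabrd together took 23.1%, 25.5% and 25.8% of the summed FPKM of the 7 genes in control replicates 1, 2 and 3 and 26.3%, 25.9% and 24.4% in the cKO replicates. The groups overlapped, with means of 24.8 ± 1.48% and 25.5 ± 1.03% (SD, n = 3). The difference of 0.70 percentage points was -0.15 without the library labelled Ctrl replicate 1, and on CPM, not divided by length, it was -0.19 with all 6 libraries, so its sign is not settled. With Gabra5 counted as extrasynaptic too, the shares were 55.6 ± 1.11% in Ctrl and 55.2 ± 0.85% in cKO, a difference of -0.43.

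**Figure D4:**
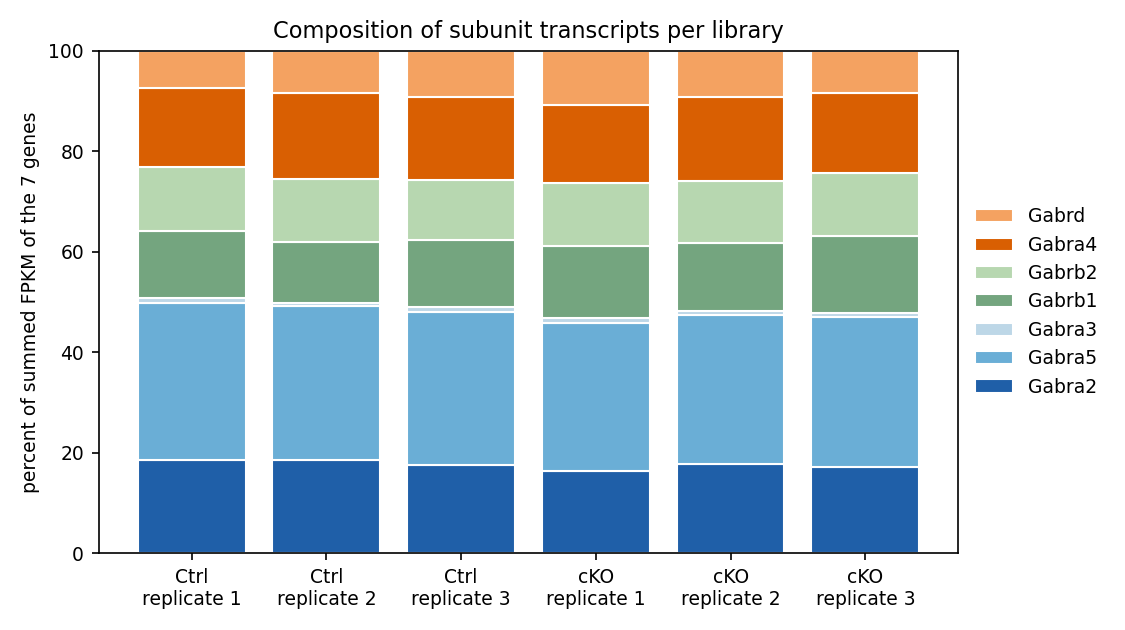
Share of the summed FPKM of the 7 subunit genes (y axis, percent) taken by each gene in each library (x axis), with the extrasynaptic Gabra4 and Gabrd in orange at the top. Gabra5 is the largest share in every library, near 30.8% in Ctrl and 29.6% in cKO, and the orange part stays between 23.1% and 26.3%.

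Within the extrasynaptic pair, the log2 FPKM ratio of Gabra4 to Gabrd was 1.10, 1.04 and 0.86 in control replicates 1 to 3 and 0.54, 0.86 and 0.93 in cKO replicates 1 to 3. It averaged 1.00 ± 0.12 in Ctrl and 0.78 ± 0.21 in cKO (SD, n = 3), a difference of -0.22 with an exact two-sided permutation p of 0.3. The difference was -0.10 without cKO replicate 1. The log2 FPKM ratio of Gabra4 to Gabra2 was -0.14 ± 0.09 in Ctrl and -0.08 ± 0.01 in cKO, a difference of 0.06 with an exact two-sided permutation p of 0.4. It was 0.01 without the library labelled Ctrl replicate 1. With 3 libraries against 3 no p below 0.1 can be reached, so these tests cannot call a difference.

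By subunit class, the summed FPKM of the 4 alpha genes was 129, 135 and 121 in the controls and 118, 111 and 112 in cKO, without overlap, and cKO over Ctrl was 0.887. For the 2 beta genes the sums were 50.7, 49.5 and 46.6 in the controls and 50.4, 44.7 and 49.0 in cKO, with overlap and a ratio of 0.982. The alpha sum is mostly Gabra2, Gabra4 and Gabra5, already described, so it is no separate result. Both sums leave out subunit genes beyond the 7, so they do not compare whole classes. Over the 7 genes the median log2 fold change was -0.09 and 5 were negative, while over all tested genes the median was 0.00 and 50.3% were negative. Under RLE scaling 5 were negative as well, and with offsets for GC content and gene length 4 were. The share of negative genes was 68.4% among those with 40% to 45% GC, where 4 of the 7 transcripts lie.

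The messages differ in features tied to m6A, the mark that YTHDF2 reads. The consensus core GGACT was found 8 times in the Gabra2 transcript, 4 of them in its 3′ untranslated region, and 0 times in that of Gabra4. Gabra3 held 8, Gabrb1 10, Gabrb2 6, Gabra5 4 and Gabrd 1, and per kilobase the 7 transcripts lay between 0 and 2.18, with a median of 1.05 over tested protein-coding genes. The broader DRACH motif occurred 19.3 to 25.1 times per kilobase (median of all, 20.1), highest in Gabra5 and lowest in Gabrd. These are letters in the principal annotated transcript of each gene, not measured m6A. That transcript has 4108 bases for Gabra4 and 5852 for Gabra2, where the deposited exon lengths are 6083 and 7640. Part of the counted exons was thus not searched.

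Across the 6 libraries Gabra2 varied most closely with Gabra5 among the other subunits, with a Pearson r of 0.947 on log2 CPM. It was 0.886 with Gabra4 and -0.21 with Gabrd, and that of Gabra4 with Gabrd was 0.11. These values are descriptive, and they include the difference between the groups. Among 9623 other protein-coding genes at 10 CPM or more, profiles among the most like those of the alpha genes were Rap1a (0.994) and Tmco1 (0.993) for Gabra2, Mcm6 (0.997) and Myo5a (0.994) for Gabra4, Map9 (0.997) and Ube2d3 (0.994) for Gabra5, and Zfp811 (0.992) and Tsc22d4 (0.987) for Gabra3. For the other members they included Rtkn (0.982) and AI314180 (0.978) for Gabrb1, Mmp16 (0.996) for Gabrb2, and Klhl42 (0.995) and Glis3 (0.991) for Gabrd. These were picked as the highest r among 9623 genes over only 6 libraries, where such values are easily reached, and a link was not tested.

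Other receptor subunit genes gave no call in the reported fit. Of 12 further genes 5 were tested, 4 of them negative, and edgeR called 0 at the adjusted threshold. At an unadjusted edgeR p under 0.05 there were 3, all negative, against 17.6% of all tested genes. Gabrg1 and Gabrg3, given next, are not among those 3. DESeq2 called 1 gene of this list, the replicate block 1 and limma-voom 0. The gamma subunit gene Gabrg1, which neighbours Gabra2, was measured at 18.8 ± 2.75 CPM in Ctrl and 15.9 ± 3.17 CPM in cKO (-0.24, adjusted p = 0.37 with edgeR), and Gabrg3 stood at 0.03. Among the genes too low to test, Gabra6, the cerebellar granule cell subunit, had 0 counts in all 6 libraries.

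Genes that anchor or traffic the receptors included 1 that rose out of 28 tested, near the 3.07% of all tested genes called higher. An unadjusted p under 0.05 was found for 7 of them, against 17.6% of all tested genes. Shisa7, which encodes an auxiliary protein of GABA-A receptors, was at 384 ± 12.1 CPM in Ctrl and rose to a mean of 440.3 CPM in cKO, by 0.20 on the log2 scale (edgeR adjusted p = 0.0118). Without cKO replicate 1, cKO replicate 3 or Ctrl replicate 2 its adjusted p was 0.0543, 0.0637 and 0.0663. DESeq2 called 6 genes of this list and limma-voom 3, where over all 16928 tested genes they called 803 and 655. In chloride handling 4 of 11 had an unadjusted p under 0.05, where edgeR called 1, DESeq2 3 and limma-voom 2. Over all tested genes 17.6% had such a p and edgeR called 3.95%. The gene that rose with edgeR was the voltage-gated chloride channel gene Clcn2, from 53.6 ± 5.82 to 65.6 ± 2.62 CPM (0.29, edgeR adjusted p = 0.0336), and its adjusted p was 0.0635 to 0.167 without 1 of the cKO libraries, the library labelled Ctrl replicate 1 or Ctrl replicate 2. Both transcripts are GC-rich, at 56.5% and 60.4%, and with offsets for GC content and gene length Shisa7 stood at 0.12 and Clcn2 at 0.19, with edgeR adjusted p-values of 0.146 and 0.141.

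No gene of GABA synthesis, transport and breakdown passed edgeR's test, 0 of 10 even at an unadjusted p under 0.05, nor did any with DESeq2 or limma-voom (0 each). The synthetic enzyme gene Gad1 stood at 0.05. Of 9 GABA-B receptor and effector genes 0 passed edgeR, DESeq2 or limma-voom, with 2 at an unadjusted p under 0.05 and values of 0.07 for Gabbr1 and 0.10 for Gabbr2. Of 6 genes of neurosteroid and endozepine modulators 0 passed any of these tools, with 3 at an unadjusted p under 0.05, against 17.6% of all tested genes. The benzodiazepine receptor ligand gene Dbi stood at -0.14 and Star at 0.08. Of 7 genes of signalling known to act on subunit gene transcription 0 passed any of them, with 1 at an unadjusted p under 0.05, and the BDNF receptor gene Ntrk2 stood at -0.05 and the transcription factor gene Egr3 at -0.11.

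**Figure D5:**
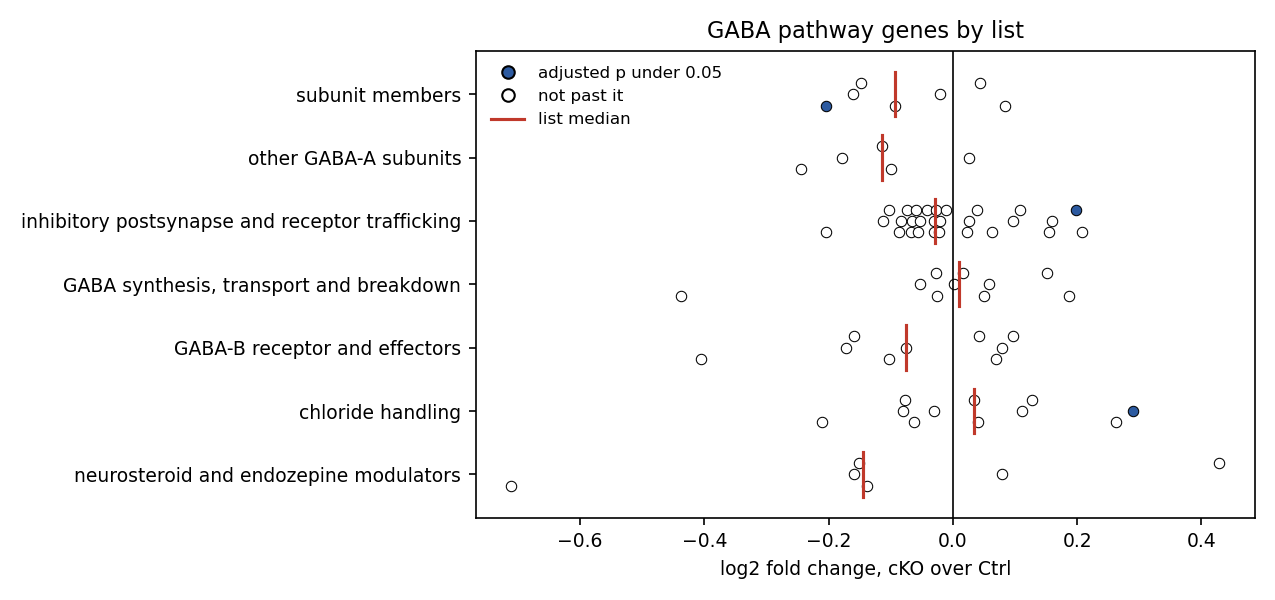
Log2 fold change, cKO over Ctrl (x axis), of each tested gene in the subunit group and in the lists of the GABA pathway (y axis); filled points passed the adjusted threshold of 0.05 and red bars are medians. The filled points are Gabra2 on the negative side and Shisa7 and Clcn2 on the positive side.

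Some markers of astrocytes and microglia were called lower in cKO. In bulk tissue, fewer cells of a type and less RNA per cell cannot be told apart. The counts below stand beside 0.874% of all tested genes called lower by edgeR and 3.07% called higher. An unadjusted p under 0.05 was found for 17.6%. Summed over 5 astrocyte markers the level was 1522 to 1641 CPM in cKO and 1772 to 1803 CPM in Ctrl. All 5 were negative, 4 had an unadjusted edgeR p under 0.05 and edgeR called 2 lower. For 6 microglial markers the level was 229 to 241 against 267 to 290 CPM. All 6 were negative with an unadjusted edgeR p under 0.05, and edgeR called 4 lower. DESeq2 called 4 astrocyte and 5 microglial markers, limma-voom 3 and 4, and edgeR with GC content and length offsets 2 and 6. Over all 16928 tested genes these fits called 803, 655 and 433. For 7 markers of immature granule neurons the level was 589 to 601 against 615 to 632 CPM. There edgeR called 0 (4 at an unadjusted p under 0.05), DESeq2 called 1 and limma-voom 0. The part of these cells in the alpha subunit values was not tested. Markers of mature granule cells summed to 3264 to 3422 CPM in cKO and 3118 to 3301 CPM in Ctrl, with 1 of 10 higher, Pitpnm2, at 882 CPM in Ctrl and 1062 CPM in cKO. Of these 10 genes 7 were negative, with a median of -0.04, and Calb1 (-0.09), C1ql3 (-0.10) and Tdo2 (-0.32) had an unadjusted p under 0.05 in edgeR without passing the adjusted test. Those of interneurons, which express GABA-A subunits as well, summed to 703 to 714 against 636 to 735 CPM, with 0 of 12 called by edgeR, DESeq2 or limma-voom and 1 at an unadjusted p under 0.05. Mossy cell, CA3 and CA1 markers each included 1 higher gene, of 4, 4 and 3 tested. Markers of oligodendrocytes, their precursors, endothelium, choroid plexus and blood gave 0 calls with edgeR, DESeq2 or limma-voom, and 1 blood marker had an unadjusted p under 0.05.

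As background, C57BL/6J mice carry an intronic deletion in Gabra2 that lowers its expression and other C57BL/6 substrains do not. The labels give no substrain. Nnt, whose gene is partly deleted in C57BL/6J, held 9 to 33 counts per library, at 0.53 to 1.78 CPM, with overlap between the groups and a log2 fold change of 0.67 (edgeR adjusted p = 0.344). Wdfy1, which also differs between substrains, was at 39.2 CPM in the library labelled Ctrl replicate 1 and at 48.6 to 55.2 CPM in the other 5 libraries, with a log2 fold change of 0.11 (edgeR adjusted p = 0.6).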

How the data were processed

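Bulk RNA of 6 dentate gyrus libraries, 3 cKO and 3 Ctrl by their labels, was analysed. The deposited table holds raw read counts per gene, and a second table holds FPKM computed by the authors. The submitters' processing notes name HISAT2 2.0.5, StringTie 1.3.3b, featureCounts 1.5.0-p3 and GRCm38, with no role given. The authors' use of strand in counting is not given in the sources used here.

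Counts were tested with edgeR 4.0.16 in R 4.3.3 (TMM scaling, filterByExpr with a minimum count of 10, quasi-likelihood F-test, Benjamini-Hochberg adjustment over 16928 genes), after a check on simulated data. Alternatives used RLE scaling, DESeq2 1.42.0, limma-voom (limma 3.58.1), no filter, 1 CPM in 3 libraries, a replicate block, limma on log2(FPKM + 0.1) and log2(FPKM + 1), GC content and length offsets, and leaving out each library. The share by principal transcript length was added after seeing the data. Ratios were tested by exact permutation. Libraries were compared pairwise and none was a duplicate.

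Named are the 7 members, Ythdf2, genes past the threshold in each list (up to 4, otherwise the 2 most abundant) and the 2 most alike profiles per member. In the list of other subunits Gabrg1, Gabrg3 and Gabra6 were chosen after their values were seen, and some genes that these rules name are not reported here. The members and lists were chosen with earlier results of these data known.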

Additional observations from a re-analysis of the deposited data

How the results depend on the processing

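Of 105 recomputed subunit fold changes, 88 kept their direction and side of the threshold, 8 lost the call, all for Gabra2, 3 gained one and 6 changed sign. Called subunits, 1 in the report, were 2 with DESeq2, 3 without a low-count filter, 0 with limma on log2(FPKM + 0.1) or log2(FPKM + 1), 0 with GC content and length offsets and 0 to 1 when 1 library was left out. Called genes of all kinds, 668 in the report, were 1155 without the filter, 110 and 95 with limma on log2(FPKM + 0.1) and log2(FPKM + 1), 433 with the offsets and 214 to 535 with 1 library left out. Called GABA pathway genes outside the 7 subunits, 2 in the report, were 4 with RLE scaling, 10 with DESeq2, 5 with limma-voom, 9 without the filter, 4 at 1 CPM in 3 libraries, 0 in both FPKM fits, 0 with the offsets and 0 to 5 with 1 library left out. The replicate block gave 7 pathway genes, 1 subunit and 808 genes, with Gabra2 at an edgeR adjusted p of 0.0265. Deviations of same-numbered libraries correlated at 0.11, 0.02 and 0.01, and cKO replicates 2 and 3 correlated best with another number, so the numbers were not taken as pairs. Gabra3 stood at 0.0174 with the offsets and at -0.188 to 0.0791 with 1 library left out, and Gabrd at -0.0629 to 0.174. The extrasynaptic share differed by 0.70 points in the report, by -0.19 on CPM, by -0.43 with Gabra5 included and by -0.15 to 1.28 with 1 library left out. The causes were not tested, except that the fits without 1 library hold fewer samples. Gabra3 had 86 to 128 counts a library, and its interval also holds the spread between libraries.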
